A study of Homo sapiens with 4 samples.

Results

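The genes described here are 10 non-collagen genes of the cartilage cell programme, read out in cultured human chondrocytes with and without fatty acid-binding protein 4 (FABP4). They were taken by symbol from the deposited expression table, which lists 19215 genes, and all 10 were found. They are the transcription factor genes SOX9, SOX5 and SOX6, the aggrecan gene ACAN and its link protein gene HAPLN1, the matrix adaptor genes COMP, MATN2 and MATN3, and PRG4 and CILP, whose proteins mark the surface and the middle layers of cartilage. The cells were C28/I2, a human costal chondrocyte line immortalised with the SV40 large T antigen, grown in medium with 10% serum and 1% antibiotics. One group received FABP4 at 25 ng/mL for 48 h and the other 0.5% DMSO for 48 h, with 2 RNA-seq libraries each. Whether DMSO was also added to the cells with FABP4 is not stated in the labels. All libraries come from 1 line, and nothing says that the replicates were separate cultures, so the spread behind every p-value may be technical.

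SOX9 is the master transcription factor of the chondrocyte. In mouse and human cartilage it works with SOX5 and SOX6, which bind beside it and raise the transcription of type II collagen, aggrecan and link protein genes. Aggrecan is the large proteoglycan that holds water in cartilage, link protein ties it to hyaluronan, and COMP and the matrilins bridge collagen fibrils to other matrix molecules. Cultured chondrocytes are known to lose much of this programme as they take on a fibroblast-like state. FABP4 is a lipid carrier that fat cells make and also secrete.

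Of the 10 genes, 4 were expressed at 1 FPKM (fragments counted per unit of transcript length and of library size) or more in every library, and 6 stayed under 0.5 FPKM in every library. MATN2 stood highest, then SOX9, ACAN and CILP, and the ranges over the 4 libraries of these genes did not overlap with one another or with COMP, the next in the order. From COMP downward, through MATN3, HAPLN1, PRG4, SOX6 and SOX5, the ranges of neighbours overlapped, so that part of the order lies within the spread. MATN2 alone made up 66.9% to 72.9% of the summed FPKM of the 10 genes, and MATN2 and SOX9 together 88.4% to 90.5%. Among all listed genes, the mean over the 4 libraries placed MATN2 above 87.3%, SOX9 above 65.3%, ACAN above 46.0% and CILP above 39.7%.

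**Figure D1:**
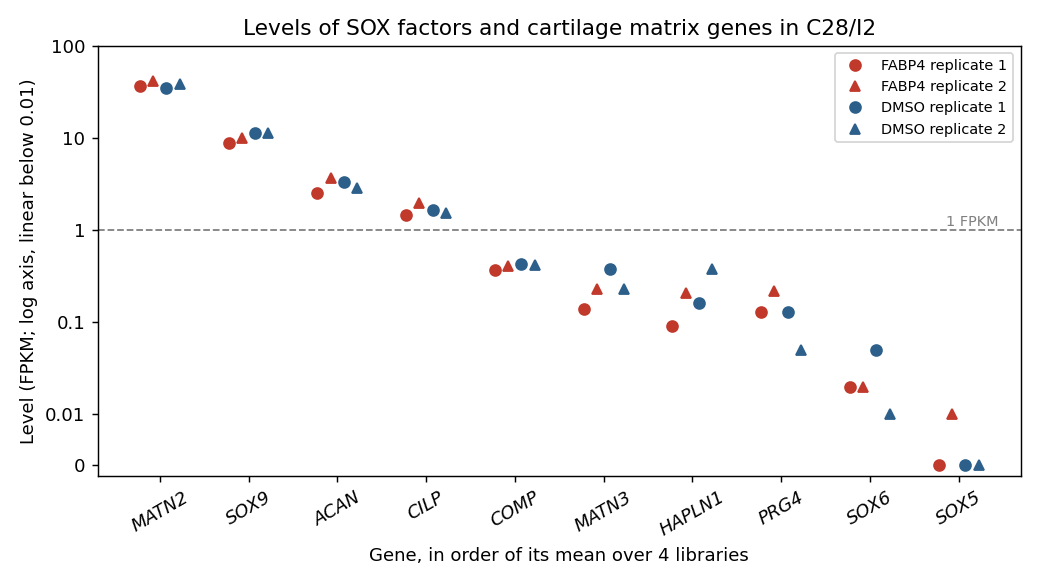
Level of each of the 10 genes in each library (FPKM, log axis that is linear below 0.01), with red for FABP4, blue for DMSO, circles for replicate 1 and triangles for replicate 2. MATN2, SOX9, ACAN and CILP lie above the dashed line at 1 FPKM in all 4 libraries, and the other 6 genes lie under 0.5 FPKM.

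None of these genes passed the test for a difference between FABP4 and DMSO. Genes were tested when they reached 1 FPKM in at least 2 libraries, which left 4 of the 10. In limma (two-sided, on log2(FPKM + 1), Benjamini-Hochberg adjustment over all tested genes), 0 of the 4 had an adjusted p under 0.05, as against 74 of 12490 tested genes, or 0.592%. At an unadjusted p under 0.05 there were also 0 of the 4, against 9.68% of all tested genes. The authors' deposited table, made with DESeq2, calls 0 of the 10 at a q-value of 0.05, with q-values from 0.911 to 0.998. It calls 118 of its 18019 genes with a q-value, or 0.655%. The median log2 fold change of the 4 was 0.03, beside 0.01 for all tested genes. Leaving out FABP4 replicate 1 made it 0.18, and leaving out FABP4 replicate 2 made it -0.14. With all 4 libraries kept it was -0.0047 with FPKM rescaled to equal totals and -0.013 after quantile normalization. Its sign thus rested on single libraries and on the scaling.

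SOX9 (gene ID 6662, chromosome 17, 72121020 to 72126420, plus strand, GRCh38) had the largest difference of the 4 tested genes. It had 8.81 and 9.98 FPKM in FABP4 replicates 1 and 2, and 11.34 and 11.29 FPKM in DMSO replicates 1 and 2. Both FABP4 libraries thus lay below both DMSO libraries, whereas the conditions overlapped for ACAN, MATN2 and CILP. A separation of the conditions, in either direction, was seen in 36.9% of all tested genes. The means were 9.40 ± 0.827 against 11.3 ± 0.0354 FPKM (SD, n = 2 each), a ratio of 0.830. The log2 fold change was -0.25 (SE 0.12, 95% interval -0.50 to 0.0045, limma adjusted p = 0.531), which does not pass. In the authors' deposited table its log2 fold change is -0.247 with a DESeq2 p-value of 0.0632 and a q-value of 0.911. The log2 fold change of SOX9 lay between -0.33 and -0.17 in the 12 alternatives. Since both FABP4 values lie below both DMSO values, leaving out 1 library could not change its sign. Dropping the filter, robust moderation and the replicate blocks leave the estimate itself unchanged, so most of this sameness was fixed in advance. With all 4 libraries kept, SOX9 was called in no alternative (limma adjusted p = 0.314 to 0.730). In bulk RNA, fewer cells with a transcript and less of it per cell cannot be told apart.

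**Figure D2:**
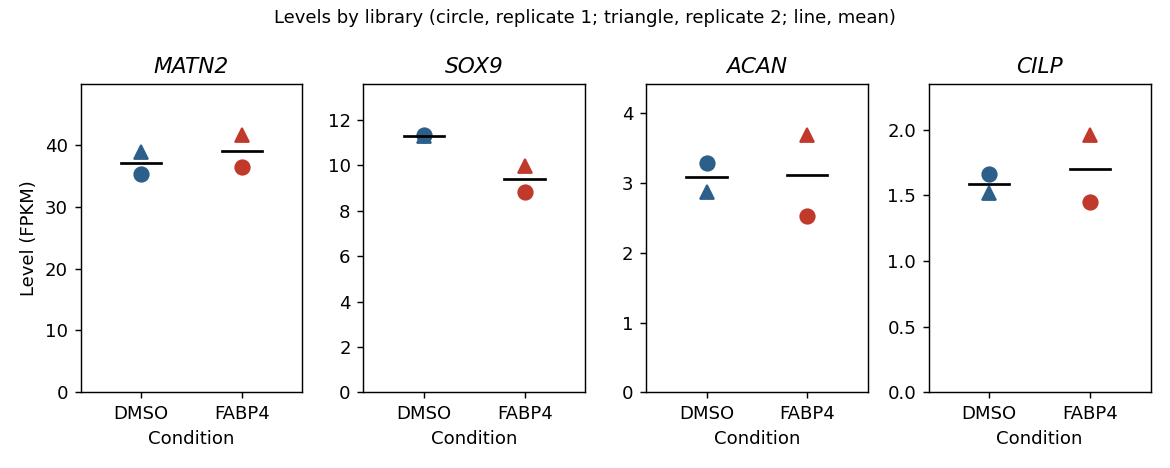
Level (FPKM, from 0) of the 4 expressed genes by condition, with circles for replicate 1, triangles for replicate 2 and a line at the mean of the 2 libraries. The FABP4 values of SOX9 (8.81 and 9.98) lie below its DMSO values (11.34 and 11.29), while those of MATN2, ACAN and CILP overlap with DMSO.

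SOX9 had almost no SOX5 or SOX6 beside it. SOX6 (gene ID 55553) had 0.02 and 0.02 FPKM with FABP4 and 0.05 and 0.01 FPKM with DMSO, and SOX5 (gene ID 6660) was listed at 0 and 0.01 FPKM with FABP4 and at 0 in both DMSO libraries. By the estimated depth of the libraries the highest values come to about 5.40 fragments for SOX6 and 0.748 for SOX5. This takes every fragment as coming from the longest annotated coding transcript, and shorter ones would give fewer. The rounding of FPKM to 2 decimals and the error of the estimated depth are not in these numbers. With so few fragments no difference between the conditions was detectable. SOX13, which belongs with SOX5 and SOX6 to the SOXD group, was expressed at 7.06 ± 0.792 FPKM with FABP4 and 6.68 ± 0.438 FPKM with DMSO (n = 2 each; log2 fold change 0.07, limma adjusted p = 0.957). SOX8 and SOX10, the relatives of SOX9 in the SOXE group, were listed at 0 in all 4 libraries. SOX12, a SOXC gene, was the highest of the other SOX genes, at 20.9 ± 0.608 against 19.0 ± 1.27 FPKM (limma log2 fold change 0.14, adjusted p = 0.836). SOX4, another SOXC gene, had 3.87 and 3.62 FPKM with FABP4 against 2.66 and 2.26 FPKM with DMSO, groups that do not overlap (log2 fold change 0.46, 95% interval 0.17 to 0.74, limma adjusted p = 0.160).

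By a rule on likeness over the 4 libraries, RUNX1, SOX15 and THBS1 followed SOX9 most closely among 32 other SOX, partner and cartilage genes with a mean of at least 1 FPKM. The measure was the root mean square distance between the log2(FPKM + 1) deviations from each gene's mean, which was 0.0532 for RUNX1, 0.0590 for SOX15 and 0.0895 for THBS1. RUNX1, a Runt transcription factor gene, had 16.07 and 17.02 FPKM with FABP4 and 18.72 and 18.45 FPKM with DMSO. SOX15 had 1.02 and 1.19 FPKM with FABP4 and 1.73 and 1.47 FPKM with DMSO. In all 3, as in SOX9, both FABP4 libraries lay below both DMSO libraries, a pattern that the rule itself selects for. The conditions did not overlap, in either direction, in 36.9% of all tested genes. None of the 3 passed in limma. With 4 libraries this likeness is a description and carries no test.

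ACAN (gene ID 176, chromosome 15, 88803442 to 88875354, plus strand, GRCh38) had nearly the same mean FPKM in both conditions. It had 2.53 and 3.69 FPKM in FABP4 replicates 1 and 2, and 3.29 and 2.88 FPKM in DMSO replicates 1 and 2, so that both DMSO values lay between the FABP4 values. The means were 3.11 ± 0.820 against 3.09 ± 0.290 FPKM (SD, n = 2 each; log2 fold change -0.0039, SE 0.15, 95% interval -0.32 to 0.31, limma adjusted p = 0.998). That interval runs from 0.800 to 1.24 times the control value of FPKM + 1, and it is wider in FPKM itself. Smaller changes in either direction could not be seen. The FABP4 replicates differed from each other by 0.41 on the log2 scale, far more than the means of the conditions. The log2 fold change of ACAN was 0.20 with FABP4 replicate 1 left out and -0.21 with replicate 2 of that group left out. In the authors' deposited table the log2 fold change of ACAN is -0.18, with a DESeq2 q-value of 0.998.

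The promoter of ACAN is shown because it is, with that of CILP, 1 of the 2 promoters of expressed matrix genes among these 10 in the RefSeq table used here. It spans chr15:88803186-88803485 on the plus strand of GRCh38.p14, from 250 bases before to 50 bases after the start. Capitals mark the GC box letters GGGCGG or their reverse complement.
ACAN: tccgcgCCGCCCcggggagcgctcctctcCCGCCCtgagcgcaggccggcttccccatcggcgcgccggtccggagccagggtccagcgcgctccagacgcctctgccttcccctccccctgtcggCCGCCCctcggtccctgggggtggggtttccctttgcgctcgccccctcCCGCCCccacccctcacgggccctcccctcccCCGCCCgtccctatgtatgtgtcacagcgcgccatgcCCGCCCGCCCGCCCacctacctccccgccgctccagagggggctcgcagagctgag
This window has a GC content of 77.0% and 33 CpG, against medians of 58.7% and 14 over 35116 promoters of the same length. A search of both strands found 8 GC box matches, all of them as the reverse complement CCGCCC, and some overlap. A match on either strand was found in 45.0% of all promoters.

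HAPLN1 (gene ID 1404), whose link protein locks aggrecan onto hyaluronan, was low. It had 0.09 and 0.21 FPKM with FABP4 and 0.16 and 0.38 FPKM with DMSO. The conditions overlapped, and the values rest on an estimated 5.81 to 26.1 fragments a library over the longest coding transcript. HAPLN3, a link protein gene with a wider tissue range, was the only 1 of the 4 link protein genes with at least 1 FPKM in every library, at 5.70 ± 0.474 against 5.45 ± 0.615 FPKM (n = 2 each; log2 fold change 0.06, limma adjusted p = 0.971). Among the 4 lecticans, the proteoglycans related to aggrecan, ACAN was the only gene to reach 1 FPKM in any library. VCAN, the gene of versican, had 0.30 and 0.23 FPKM with FABP4 and 0.20 and 0.28 FPKM with DMSO.

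MATN2 (gene ID 4147, chromosome 8, 97868840 to 98036716, plus strand, GRCh38), a matrilin gene active in many connective tissues, carried the highest level of the 10. It had 36.47 and 41.57 FPKM in FABP4 replicates 1 and 2, and 35.25 and 38.79 FPKM in DMSO replicates 1 and 2. The conditions overlapped, with means of 39.0 ± 3.61 against 37.0 ± 2.50 FPKM (SD, n = 2 each; log2 fold change 0.07, SE 0.12, 95% interval -0.18 to 0.33, limma adjusted p = 0.948). For MATN2 too the sign rested on single libraries, with a log2 fold change of 0.16 when FABP4 replicate 1 and -0.019 when FABP4 replicate 2 was left out. The more cartilage-restricted matrilins were far lower. MATN3 (gene ID 4148) had 0.14 and 0.23 FPKM with FABP4 and 0.38 and 0.23 FPKM with DMSO, and MATN1 had 0.02 and 0.02 FPKM against 0.04 and 0.04 FPKM. MATN2 was thus the only 1 of 4 matrilin genes with 1 FPKM or more.

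COMP (gene ID 1311), a thrombospondin that binds collagen fibrils, had 0.37 and 0.41 FPKM with FABP4 and 0.43 and 0.42 FPKM with DMSO. The FABP4 values lay below the DMSO values by 0.01 FPKM at the nearest, which is the last digit the table gives. The values rest on an estimated 10.9 to 13.2 fragments a library over the longest coding transcript. Its relative THBS1, the gene of thrombospondin 1, was expressed at 85.38 and 99.63 FPKM with FABP4 and 122.12 and 125.14 FPKM with DMSO. That is a ratio of 0.748 with groups that do not overlap (log2 fold change -0.42, SE 0.13, 95% interval -0.69 to -0.15, limma adjusted p = 0.193), which does not pass in limma. The authors' deposited table calls it lower with FABP4, at a log2 fold change of -0.464 and a DESeq2 q-value of 0.000579. In limma THBS1 passed in 2 of 12 alternatives, the rescaling of FPKM to equal totals and a crossed pairing of the replicates. With all 4 libraries kept the limma adjusted p was 0.0161 to 0.591. The crossed pairing was chosen after seeing the data, and no label says how the replicates pair. THBS3, the next thrombospondin in level, had 21.6 ± 1.89 against 19.5 ± 0.368 FPKM (limma log2 fold change 0.14, adjusted p = 0.840).

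CILP (gene ID 8483, chromosome 15, 65194758 to 65211488, minus strand, GRCh38) encodes a protein of the middle layers of cartilage that is known to hold back TGF-beta signalling. It had 1.45 and 1.96 FPKM in FABP4 replicates 1 and 2, and 1.66 and 1.52 FPKM in DMSO replicates 1 and 2. As for ACAN, both DMSO values lay between the FABP4 values. The means were 1.71 ± 0.361 against 1.59 ± 0.0990 FPKM (SD, n = 2 each; log2 fold change 0.06, SE 0.15, 95% interval -0.26 to 0.37, limma adjusted p = 0.978). That log2 fold change of CILP was 0.19 with FABP4 replicate 1 left out and -0.08 with FABP4 replicate 2 left out. PRG4 (gene ID 10216), the gene of the joint lubricant lubricin, had 0.13 and 0.22 FPKM with FABP4 and 0.13 and 0.05 FPKM with DMSO. The highest of these values comes to an estimated 11.7 fragments over the longest coding transcript of PRG4. Of the exonic bases of PRG4, 13.3% overlap with exons of TPR on the opposite strand, and since no source used here states the strandedness, the level of PRG4 is uncertain. For SOX6 the overlap is 1.57%, and the other 8 genes have none.

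The promoter of CILP differs in make-up from that of ACAN and is shown beside it for that reason. It spans chr15:65211424-65211723 on the minus strand of GRCh38.p14, with the letters TATAA on the strand of the gene in capitals.
CILP: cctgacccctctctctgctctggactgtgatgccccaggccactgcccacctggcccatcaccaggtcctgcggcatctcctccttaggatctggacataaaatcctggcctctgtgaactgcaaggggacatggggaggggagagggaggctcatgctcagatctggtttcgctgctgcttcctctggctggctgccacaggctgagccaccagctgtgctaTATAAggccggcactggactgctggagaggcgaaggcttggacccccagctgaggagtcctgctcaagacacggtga
This window has 5 CpG and no GC box match. The TATAA begins 27 bases before the start, and the letters occur in 14.8% of all promoters of that length. RefSeq entries matched 8 of the 10 genes. The core letters of SOX sites, AACAAT on both strands, were found in none of the windows of ACAN, HAPLN1, COMP, MATN3, PRG4 and CILP, against 10.1% of all promoters. They were found in that of SOX5 and in 3 of 5 of SOX6. These are matches of letters in a short window and say nothing of SOX9 binding, much of which lies elsewhere in known cartilage genes.

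**Figure D3:**
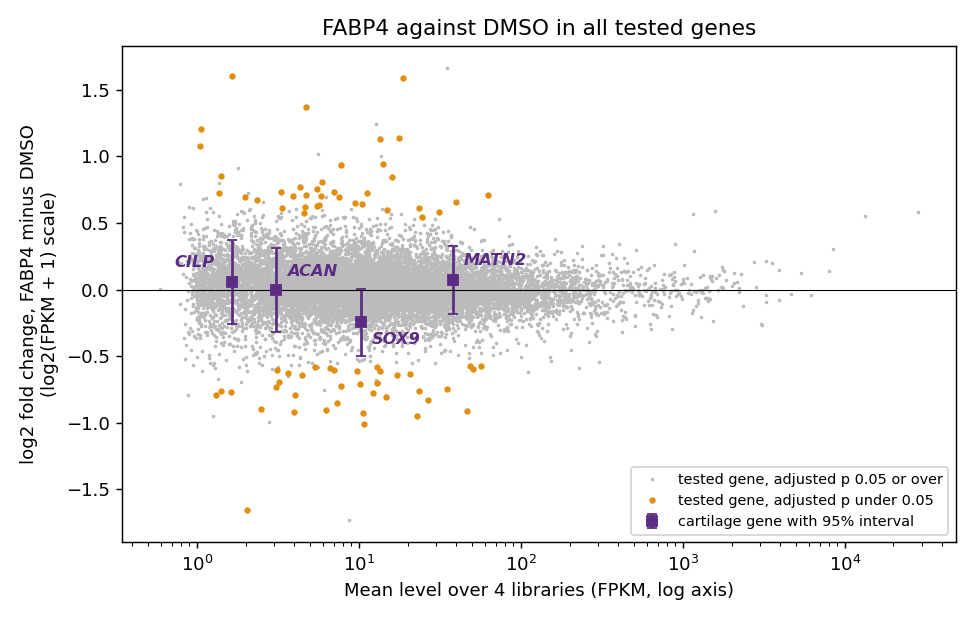
Log2 fold change of FABP4 against DMSO (log2(FPKM + 1) scale) by mean level over 4 libraries (FPKM, log axis) for the 12490 tested genes, with the 74 genes under an adjusted p of 0.05 in orange. The purple squares with 95% intervals are SOX9 (-0.25), ACAN (-0.0039), MATN2 (0.07) and CILP (0.06), all inside the cloud of genes that did not pass.

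The rest of the cartilage programme, taken from 5 lists of other SOX genes, SOX9 partners and regulators, relatives of the matrix genes, cartilage collagens and further secreted cartilage genes, held no call in limma either, while the authors' deposited table calls 1 of them, THBS1. Of 72 genes 71 are in the table, 32 were tested, and in limma 0 passed in either direction. At an unadjusted p under 0.05 there were 7 of the 32, or 21.9%, against 9.68% of all tested genes. Above 0 were 20 of the 32, or 62.5%, against 54.0% of all tested genes. In 16 of the 32 the conditions did not overlap, beside 36.9% of all tested genes. The list of SOX9 partners and cartilage regulators was well represented, with 16 of 17 tested, a median log2 fold change of 0.0074 and no call. In 5 of the 16 the conditions did not overlap, beside 36.9% of all tested genes. At an unadjusted p under 0.05 in limma there was 1 of the 16, against 9.68% of all tested genes. It was NKX3-2, higher with FABP4 (limma log2 fold change 0.46, adjusted p = 0.267). The ubiquitin ligase gene WWP2 was highest in level in this list, at 22.7 ± 1.17 against 23.7 ± 0.523 FPKM (limma adjusted p = 0.962). ARID5B, a chromatin regulator gene, had 8.43 and 8.09 FPKM with FABP4 against 8.31 and 10.01 FPKM with DMSO (limma adjusted p = 0.870). Of 6 cartilage collagen genes, by contrast, only COL11A2 was tested, at 3.96 and 4.0 FPKM with FABP4 against 3.07 and 2.78 FPKM with DMSO (limma log2 fold change 0.34, adjusted p = 0.326). COL11A1 had 0.72 and 0.89 FPKM with FABP4 and 0.97 and 1.15 FPKM with DMSO, and COL9A2 0.16 and 0.31 FPKM against 0.39 and 0.56 FPKM. COL2A1, the defining collagen gene of cartilage and a target of SOX9, was at most 0.05 FPKM, and COL9A1 was listed at 0 in all 4 libraries. Among the secreted genes the glycoprotein gene CHI3L1 stood out in level, at 339.80 and 373.76 FPKM with FABP4 against 302.79 and 266.41 FPKM with DMSO (limma log2 fold change 0.33, adjusted p = 0.461). BGN, the gene of the small proteoglycan biglycan, had 21.8 ± 0.516 against 26.7 ± 2.57 FPKM (limma log2 fold change -0.28, adjusted p = 0.439). MIA, a cartilage-derived secreted protein gene, had 2.94 and 2.75 FPKM against 4.85 and 4.0 FPKM (limma log2 fold change -0.49, adjusted p = 0.126). With a crossed pairing of the replicates, chosen after seeing the data, the limma adjusted p of MIA was 0.0275. The authors' deposited table gives MIA a smaller log2 fold change, -0.223, with a DESeq2 q-value of 0.998.

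**Figure D4:**
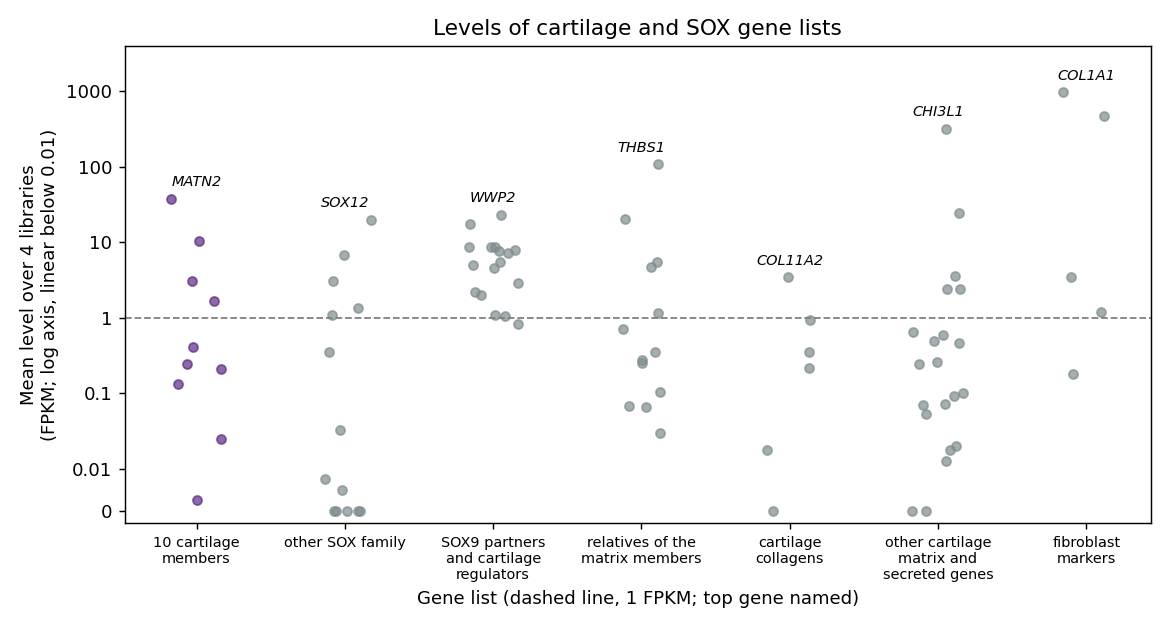
Mean level over the 4 libraries (FPKM, log axis that is linear below 0.01) of the 10 genes in purple and of the other lists in grey, 1 point a gene, with the top gene of each list named. SOX9 partners and regulators lie mostly above the dashed line at 1 FPKM, and all cartilage collagens but COL11A2 have means below it, while COL1A1 of the fibroblast markers is highest of all.

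Set against its label, the line carried only part of a chondrocyte's marker set. Of 8 chondrocyte markers, SOX9, ACAN and COL11A2 had at least 1 FPKM in every library, and COL2A1, COL9A1, MATN1, HAPLN1 and CNMD, the gene of chondromodulin, were under 1 FPKM in every library. COL9A1 and CNMD were listed at 0 throughout, while 0 of 10 housekeeping genes were at 0 in any library. Of 5 fibroblast markers 4 were tested in limma, with 0 past the threshold. With no adjustment 1 had a p under 0.05, the growth factor receptor gene PDGFRA, with 3.75 and 4.30 FPKM with FABP4 against 2.88 and 2.97 FPKM with DMSO (limma adjusted p = 0.315). Their summed level, almost all from COL1A1 and COL1A2, was 1208 and 1669 FPKM in FABP4 replicates 1 and 2 and 1537 and 1367 FPKM in DMSO replicates 1 and 2. The fibroblast markers COL3A1 and THY1, by contrast, were low. COL3A1 had 1.13 and 1.12 FPKM with FABP4 and 1.27 and 1.27 FPKM with DMSO. THY1 had 0.10 and 0.19 FPKM with FABP4 and 0.24 and 0.20 FPKM with DMSO. The summed levels of the endothelial, adipocyte and epithelial markers were at most 0.420, 0.540 and 0.530 FPKM. The leukocyte list summed to 3.87 and 3.34 FPKM with FABP4 against 4.90 and 4.60 FPKM with DMSO, and its part in the SOX9 values was not tested. The values of its 5 members differed in direction, and 3 of them were under 1 FPKM in every library and not tested. CSF1R was the only 1 of the 5 with both FABP4 libraries below both DMSO libraries, at 2.42 and 2.06 FPKM against 3.67 and 3.45 FPKM (limma adjusted p = 0.126). With a crossed pairing of the replicates, chosen after seeing the data, the limma adjusted p of CSF1R was 0.0342. LYZ overlapped, with 1.09 and 0.77 FPKM against 1.02 and 1.1 FPKM. The CD14 values were higher with FABP4, at 0.30 and 0.41 FPKM against 0.15 and 0 FPKM. So were those of PTPRC, the gene of the pan-leukocyte antigen CD45, at 0.04 and 0.08 FPKM against 0 and 0.03 FPKM. Both genes were too low to be tested, so their direction is uncertain.

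The replicates of the FABP4 group differed in 1 direction across the 4 tested genes. In all 4, FABP4 replicate 2 was higher than FABP4 replicate 1, against 47.6% of all tested genes. Over the 10 genes it was higher in 9, with SOX6 equal in both. The 6 untested ones are under 0.5 FPKM, and no share over genes that low was computed. Between the DMSO libraries, replicate 2 was higher in 2 of the 10, MATN2 and HAPLN1, and SOX5 was at 0 in both. Of these 2 only MATN2 was tested, and the share over all tested genes was 57.6%. The log2 differences between the FABP4 replicates were 0.16 for SOX9, 0.18 for MATN2, 0.27 for CILP and 0.41 for ACAN, beside a median size of 0.12 over all tested genes. COL1A1 moved with them, at 793.60 and 1123.74 FPKM in FABP4 replicates 1 and 2, and its part in these values was not tested.

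The estimated depth was 12100000 and 11150000 fragments in FABP4 replicates 1 and 2 and 12575000 and 12850000 in DMSO replicates 1 and 2. At that depth 1 FPKM over 1 kilobase of effective length is worth 11.2 to 12.8 fragments. Over the longest coding transcript SOX9 rested on 391 to 532 fragments a library, ACAN on 266 to 359, CILP on 95.2 to 119 and MATN2 on 1690 to 1910. Over all tested genes 37 passed upward and 37 downward. With FPKM rescaled to equal totals the split was 65 and 115, and after quantile normalization 3 and 7.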

How the data were processed

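RNA-seq of 2 FABP4 and 2 DMSO libraries was used, grouped by the treatment label of each sample. The authors deposited FPKM for each library, per the file headers, with 2 decimals. Per the file headers they also deposited a log2 fold change and a p-value and q-value from DESeq2, where a positive log2 fold change means higher with FABP4. Bowtie2 2.2.5, RSEM 1.2.12, DESeq2 1.4.5 and GRCh38.p13 are named without roles, per the submitters' processing notes. No source used here states the annotation, the filters, how RNA was selected or whether strand was kept. FPKM divides by transcript length and library size, so a few very abundant genes can shift all others.

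Values were taken as log2(FPKM + 1), a scale that understates the change of low genes. A gene was tested when 2 or more libraries held 1 FPKM or more, by limma 3.58.1 in R 4.3.3 on the condition alone, with the variance moderated along the mean, two-sided, at a Benjamini-Hochberg adjusted p of 0.05. An exact permutation test of 2 against 2 libraries cannot go below p = 0.333 and was not used. The fit was tested on simulated data in which all levels were set well above the measured ones. That test does not show how the fit performs for genes near the filter. Gene coordinates are those of GENCODE 29 on GRCh38, and promoters those of RefSeq on GRCh38.p14.

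The depth of the libraries was estimated, since the table holds no counts. Low FPKM of single-exon genes (606 in the table, 94 to 137 usable a library) should be whole multiples of 1 fragment at the gene's length less the fragment length, which was fitted at 270 bases. Closeness to whole multiples was scored by a cosine, which is 1 for an exact fit. Its mean was 0.441 to 0.511 over the libraries, so the fit was loose. RSEM, if it made the FPKM, can also assign parts of fragments, so estimated fragments are a guide to the precision only.

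The genes, the lists and the rules for naming genes were chosen with earlier results of these data known. Named are all 10 genes, of each other list the genes that passed and the 3 highest in level, and the 3 genes most like SOX9. For the endothelial, adipocyte, epithelial and leukocyte markers sums stand in for most single genes. SOX8, SOX10, VCAN, MATN1, COL2A1, COL9A1, CNMD, PTPRC, COL3A1 and THY1 fall outside that rule and were chosen after their values were seen. The alternatives were another pseudocount (0.1), no filter, 3 other scalings, robust moderation, a replicate block, a crossed replicate block, and each library left out. The crossed block was not planned and was chosen after seeing the data. With the replicate numbers of the titles, the deviations of same-numbered libraries from their group means correlated at -0.119 across the 12490 tested genes, and no label says that the numbers mark a shared culture or day.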

Additional observations from a re-analysis of the deposited data

How the results depend on the processing

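In limma none of the 4 tested genes was called in any of the 12 alternatives. At an unadjusted p under 0.05 there was 1 of the 4 with median-of-ratios scaling, with quantile normalization and with the crossed block, and 0 in the others. Without the filter 0 of the 10 passed (0 at an unadjusted p under 0.05), and the 6 low genes had limma adjusted p values of 0.755 to 0.983. The count of all genes passing, 74, changed more. It was 0 without the filter in limma (1362 at an unadjusted p under 0.05), 180 with FPKM rescaled to equal totals, 10 after quantile normalization and 164 with robust moderation. With the replicate block it was 47, and with a crossed replicate block, an alternative chosen after seeing the data, 418. The replicate numbers are not shown to pair the libraries. Neither block changed a call among the 4 tested genes, and the 6 low genes were not fitted with a block. THBS1, MIA and CSF1R passed with the crossed block alone or, for THBS1, also with equal totals. With single libraries left out the counts ran from 49 (DMSO replicate 2 left out) to 150 (FABP4 replicate 1 left out), and DMSO replicate 1 and FABP4 replicate 2 gave 123 and 98. In the same fits the median log2 fold change of the 4 genes ran from -0.14 to 0.18. The cause of these shifts was not tested. SOX5, SOX6, HAPLN1, MATN3, PRG4 and COMP were too low to be tested with the filter. Without it no difference was detected in them, on a scale that understates the change of low genes. The part of depth in this was not tested.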
